A study of Mus musculus with 28 samples.

Results

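The let-7 family was followed in mouse blood as 9 mature miRNAs, the 5p arms of let-7a, let-7b, let-7c, let-7d, let-7e, let-7f, let-7g and let-7i together with miR-98-5p. They were taken by name and are 9 of 1966 miRNA entries in a table of 80668 RNAs. Small RNA had been sequenced from 14 wildtype female C57BL/6N mice, all bled from the vena cava under ketamine and xylazine anaesthesia. Platelet-free plasma of each mouse was spun in an ultracentrifuge, which gave an EV-enriched pellet (EV, extracellular vesicle) and the EV-depleted plasma above it, and each was made into its own library, so that 28 libraries stand for 14 animals. The mice were 2 months (n = 3), 6 months (n = 4), 8 months (n = 3), 12 months (n = 2) or 18 months old (n = 2), and by the protocol no animals were pooled. The plasma labels of 2-month replicates 2 and 3 carry 1 shared code that names both animals, so their match to the EV libraries rests on the replicate number. For most counts of mice on single members, the count among the 12 mice without this doubt is also given below. Such a pellet is enriched for vesicles but can also hold other particles of similar density, and blood RNA comes from many organs, so that fewer releasing cells and less RNA released per cell cannot be told apart in any value below.

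let-7 was first described as a gene that times development in the nematode, and its sequence is kept across animals. In mammals the mature forms are abundant in differentiated cells and repress growth-related messenger RNAs such as those of Hmga2 and the Ras genes, while the RNA-binding protein Lin28 blocks the processing of their precursors. A miRNA finds its targets through the seed, the bases near its 5′ end that pair with the messenger RNA, and the members share this seed.

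The mature sequences are shown because the members are told apart only by a few bases behind the seed, which sets how well reads can be assigned to them. They are the RefSeq sequences on GRCm38.p6, found for all 9 members, written 5′ to 3′ with the seed (bases 2 to 8) in capitals.
mmu-let-7a-5p: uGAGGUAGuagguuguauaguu
mmu-let-7b-5p: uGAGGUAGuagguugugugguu
mmu-let-7c-5p: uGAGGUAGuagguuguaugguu
mmu-let-7d-5p: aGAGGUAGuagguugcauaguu
mmu-let-7e-5p: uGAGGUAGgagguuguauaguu
mmu-let-7f-5p: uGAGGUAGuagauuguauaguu
mmu-let-7g-5p: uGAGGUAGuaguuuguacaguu
mmu-let-7i-5p: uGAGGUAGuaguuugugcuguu
mmu-miR-98-5p: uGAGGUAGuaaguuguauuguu

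All members are 22 bases long and hold the same 7-base seed. Of the 36 pairs of members, 4 differ at 1 base and 10 at 2 bases, and the most distant pair, let-7d-5p and let-7i-5p, differs at 6. Counting positions from 1 at the 5′ end, let-7a-5p and let-7c-5p are separated by A19G, let-7b-5p and let-7c-5p by G17A, let-7a-5p and let-7f-5p by G12A, and let-7a-5p and let-7e-5p by U9G. let-7g-5p and let-7i-5p are separated by A17G and A19U. A read with 1 sequencing error can therefore be assigned to a neighbour in 4 pairs. The study's methods describe mapping that tolerates a mismatch for its organ libraries, and state no rule for these blood libraries. Only let-7a-5p, let-7c-5p and let-7f-5p, each encoded by 2 hairpin genes, had counts that were not whole numbers. The motif CNGGNC, which the study names as one of the motifs linked to sorting into vesicles, was searched on the mature strand. It occurred in 0 of the 9 members and in 7.92% of the 1679 mature mouse names in the RefSeq table, which says only that these letters are not in the members.

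The members come from 12 hairpins in GRCm38.p6. The hairpins of let-7a-1, let-7f-1 and let-7d lie close together in exons of the noncoding RNA 6720427I07Rik, let-7d at chr13:48536012-48536114 and let-7a-1 at chr13:48538179-48538272, on the minus strand. let-7c-2 and let-7b lie next to each other in an exon of the noncoding transcript Lncppara, let-7b at chr15:85707319-85707403 on the plus strand. let-7f-2 (chrX:151912346-151912428) and miR-98 (chrX:151913214-151913321) lie in an intron of Huwe1, let-7g (chr9:106178840-106178927) in an intron of Wdr82, and let-7e (chr17:17830352-17830444) in an intron of Spaca6, all on the plus strand. let-7c-1 lies in an intron of Mir99ahg, the host transcript of miR-99a, let-7a-2 in an intron of 3110039I08Rik, and let-7i in an exon of the pseudogene transcript D630033A02Rik.

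All 9 members were detected in all 28 libraries. Total counts ran from 928651 to about 23905700 per plasma library and from about 4764340 to 52753800 per EV library, of which 0.362% ± 0.0837 in plasma and 0.396% ± 0.112 in EVs (mean ± SD, n = 14 each) were miRNA counts. The family itself rested on 261 to 4497 counts per plasma library and 1348 to 7680.5 per EV library, the lowest in the plasma of 6-month replicate 1, the 1 library under 2000000 counts. let-7 members made up 5.52% ± 0.751 of miRNA counts in plasma and 5.68% ± 1.08 in EVs (n = 14 each), and the EV share was the higher in 9 of 14 mice, so the size of the family within the miRNAs differed by less than its spread. In RPM, the deposited counts divided by 1 number per library, the summed family was 336 ± 98.1 in plasma and 396 ± 127 in EVs.

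let-7g-5p and let-7c-5p were the most abundant members in both fractions, and let-7e-5p the least. let-7g-5p ran from 52.1 RPM through a median of 83.4 to 149 RPM in plasma, and from 48.1 through 99.1 to 184 RPM in EVs, ranking 13th and 16th among all miRNAs. let-7c-5p ran from 40.4 through 74.7 to 125 RPM in plasma and from 38.6 through 85.1 to 135 RPM in EVs. let-7b-5p ran from 28.4 through 55.8 to 87.1 RPM in plasma and from 23.6 through 51.3 to 83.5 RPM in EVs. For each of these 3 members the ranges of the fractions overlapped almost completely, as the plot of RPM by member shows. let-7i-5p had a mean of 34.3 ± 13.4 RPM in plasma and 49.9 ± 22.6 in EVs, let-7a-5p 36.7 ± 11.8 and 47.98 ± 13.8, let-7f-5p 17.3 ± 5.71 and 29.0 ± 8.91, and let-7d-5p 18.1 ± 5.96 and 23.9 ± 8.58 (n = 14 each). The rarest members were miR-98-5p, at 4.87 ± 1.76 and 4.65 ± 1.56 RPM, and let-7e-5p, at 1.76 ± 0.725 and 2.33 ± 1.08 RPM, which rested on as few as 2 counts in a library.

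**Figure D1:**
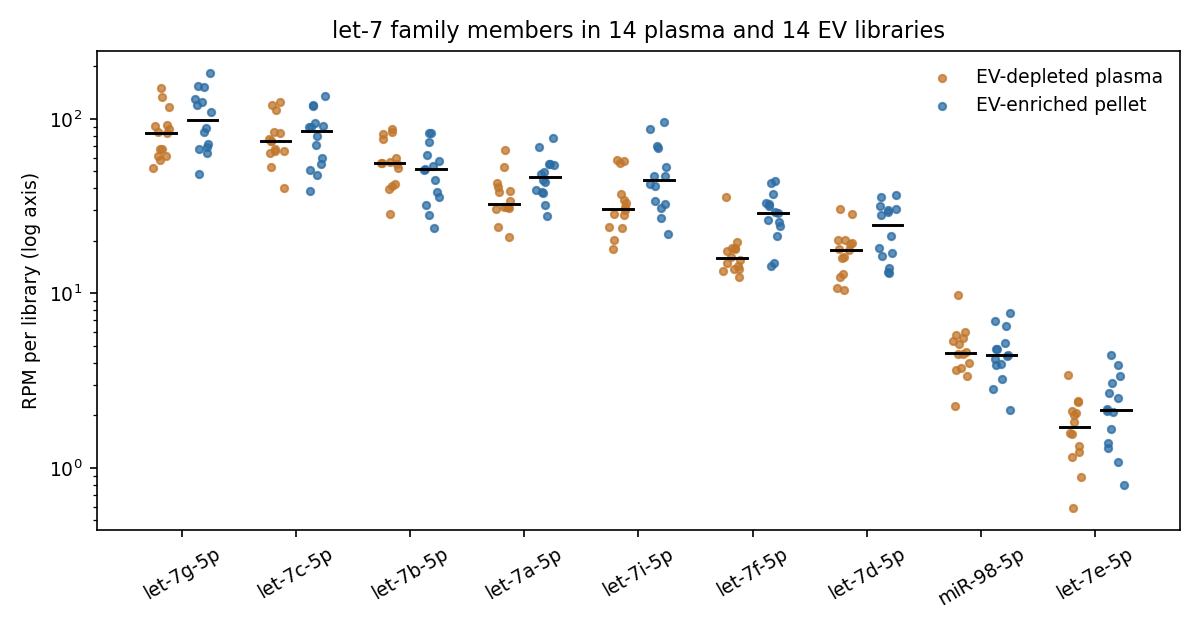
RPM (log axis) of the 9 members in each of the 14 EV-depleted plasma libraries (orange) and 14 EV-enriched libraries (blue), with the median as a black bar. let-7g-5p and let-7c-5p stand highest and let-7e-5p lowest in both fractions, and the median of let-7f-5p is 15.9 RPM in plasma and 29.0 RPM in EVs.

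The order of the levels was read within each library, as the log2 ratio of neighbouring members. In plasma let-7g-5p was above let-7c-5p in 9 of 14 libraries, a log2 ratio of 0.12 ± 0.33, so their order was not larger than its spread. let-7c-5p was above let-7b-5p in 14 of 14 plasma and 14 of 14 EV libraries, and this ratio was among the tightest, 0.44 ± 0.15 in plasma and 0.68 ± 0.099 in EVs. let-7b-5p stood above let-7a-5p in 14 of 14 plasma libraries (0.67 ± 0.25), whereas in EVs let-7b-5p, let-7i-5p and let-7a-5p did not differ beyond their spread, let-7b-5p being above let-7i-5p in 7 of 14. let-7f-5p was above let-7d-5p in 14 of 14 EV libraries (0.30 ± 0.26), and the same pair was split evenly in plasma. Below them, miR-98-5p and let-7e-5p kept their places in 14 of 14 libraries of both fractions.

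The comparison of the fractions asks which members sit more in the pellet and which more in the EV-depleted plasma of the same animals. let-7f-5p and let-7i-5p were higher in EVs, let-7b-5p was higher in plasma, and the other 6 members did not pass the test. Of 333 miRNAs tested, 61 differed (18.3%), 27 of them higher in EVs (8.11%) and 34 higher in plasma (10.2%), so that 3 of 9 members compare with a background of 18.3%. Values are log2 fold differences, EV over plasma, after TMM scaling, with edgeR's quasi-likelihood test and Benjamini-Hochberg adjustment over the 333 miRNAs. This main fit held age in months as a covariate and did not pair the libraries of a mouse. A fit with the mouse as a block, given below, pairs them. The median over the 9 members was 0.25, against 0.022 over all tested miRNAs.

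let-7f-5p, which differs from let-7a-5p at 1 base, showed the largest difference of the family. Its plasma libraries ran from 12.4 through a median of 15.9 to 35.6 RPM and its EV libraries from 14.4 through 29.0 to 44.3 RPM. The groups overlapped, but within mice the RPM was higher in EVs in 14 of 14 (12 of 12 with certain pairing). The log2 ratio of EV to plasma RPM was 0.26, 1.03 and 1.27 in the 2-month mice, 0.70, 0.11, 0.11 and 0.52 in the 6-month mice, 0.90, 0.75 and 0.78 in the 8-month mice, 1.28 and 0.87 in the 12-month mice, and 0.54 and 1.13 in the 18-month mice. The smallest ratios were thus those of 2 mice of 6 months. The fitted log2 difference was 0.59 (SE 0.17, adjusted p = 0.0115, edgeR), and the call was kept in all 11 other settings and in all 14 fits that left out 1 mouse, with log2 differences from 0.52 to 0.75 and adjusted p from 0.000341 to 0.0317.

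let-7i-5p, encoded alone on chromosome 10, ran from 17.9 through 30.7 to 57.9 RPM in plasma and from 21.8 through 44.8 to 96.0 RPM in EVs. Its RPM was the higher in the pellet of 11 of 14 mice (9 of 12 with certain pairing), and the 3 exceptions were 1 animal of 2 months and 2 of 6 months. The log2 difference was 0.34 (SE 0.11, adjusted p = 0.0367, edgeR). The call was lost without the 8-month mouse of replicate 1 (edgeR adjusted p = 0.0620) or of replicate 3 (adjusted p = 0.0578), and with the deposited RPM scaling, where the log2 difference was 0.55 with adjusted p = 0.153. It was also lost without the filter (adjusted p = 0.188) and with limma (adjusted p = 0.182 and 0.170), and kept in 7 of 11 other settings.

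let-7b-5p differs from let-7c-5p at 1 base and was the member that moved the other way. Its fitted log2 difference was -0.37 (SE 0.13, adjusted p = 0.0447, edgeR), and its RPM was lower in EVs in 12 of 14 mice, the exceptions being both mice of 12 months. Among mice with certain pairing its RPM was higher in EVs in 2 of 12. The call was close to the threshold in this unpaired fit. It was kept in 1 of 14 fits that left out 1 mouse, which were unpaired too. That was the fit without 18-month replicate 1 (edgeR adjusted p = 0.0318). In the other 13 the adjusted p ran up to 0.198, reached without 2-month replicate 3. The call was kept in 3 of 11 other settings, and was lost with DESeq2 (adjusted p = 0.0668), DESeq2 size factors (0.0951), scaling to miRNA reads (0.0912), the 50% filter (0.0590), no filter (0.484), RPM scaling (0.572) and limma (0.555 and 0.545). The 3 settings that kept it were both blocked fits and the one without the library under 2000000 counts. With the mouse as a block, which compares both libraries of each animal, let-7b-5p had a log2 difference of -0.39 (SE 0.082, adjusted p = 0.000799, edgeR). The same blocked fit added let-7a-5p (0.22, adjusted p = 0.0412), and 4 of 9 members then stood against 26.4% of all tested miRNAs.

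Among the 6 other members, let-7d-5p (0.26, SE 0.15, adjusted p = 0.214), let-7a-5p (0.25, SE 0.14, adjusted p = 0.225) and let-7e-5p (0.25, SE 0.24, adjusted p = 0.511) had positive values, and let-7g-5p was near 0 (0.085, SE 0.11, adjusted p = 0.650). miR-98-5p (-0.25, SE 0.17, adjusted p = 0.334) and let-7c-5p (-0.14, SE 0.12, adjusted p = 0.460) had negative ones, all from edgeR. Scaling by the deposited RPM moved the median of all tested miRNAs by 0.26 toward EVs. On that scale let-7c-5p changed sign to 0.038, let-7b-5p (-0.20) and miR-98-5p stayed negative, and let-7f-5p stayed past the threshold at 0.75 (adjusted p = 0.0205).

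**Figure D2:**
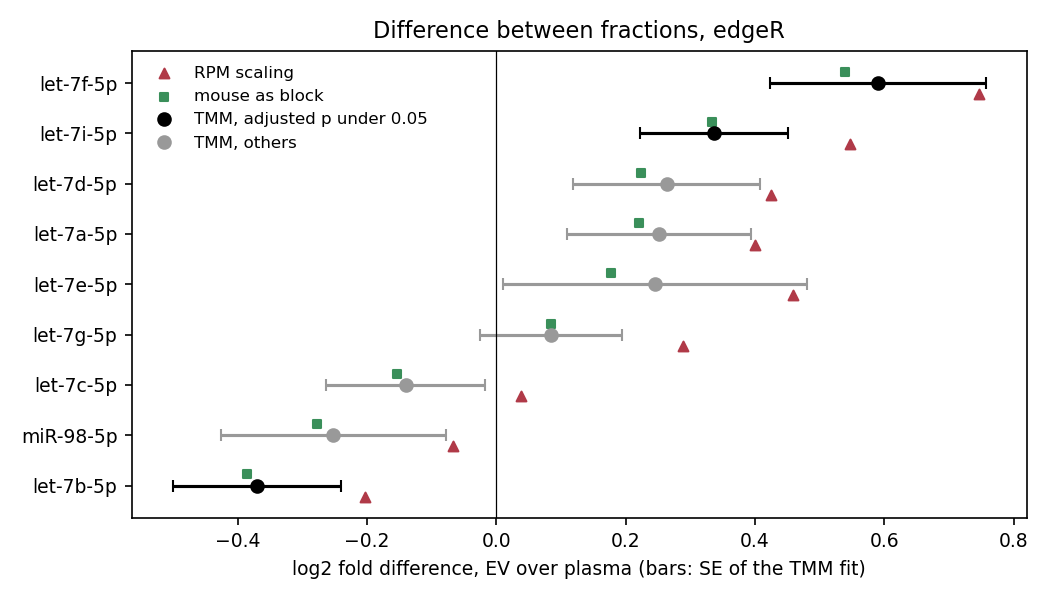
Log2 fold difference of each member, EV over plasma, from edgeR with TMM scaling (circles with SE, black where the adjusted p was under 0.05), with the mouse as a block (green squares) and with RPM scaling (red triangles). let-7f-5p lies farthest to the EV side in all 3 fits and let-7b-5p farthest to the plasma side, and RPM scaling moves every member to the right.

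The make-up of the family does not depend on how libraries are scaled, since each member is taken as a percent of all let-7 counts of its library. let-7b-5p made up 17.4% ± 2.09 of let-7 counts in plasma and 12.99% ± 2.65 in EVs, and this share was lower in the pellet of 14 of 14 mice (12 of 12 with certain pairing), the differences running from -7.05 to -0.846 percentage points. let-7c-5p followed with 23.5% ± 2.93 in plasma and 20.6% ± 3.35 in EVs, lower in EVs in 12 of 14 mice (higher in 2 of 12 with certain pairing). On the other side, let-7f-5p made up 5.24% ± 1.05 in plasma and 7.53% ± 1.68 in EVs, higher in EVs in 12 of 14 mice, as was let-7a-5p, with 10.97% ± 1.51 and 12.5% ± 1.92. With certain pairing both shares were higher in EVs in 10 of 12. let-7i-5p held 10.1% ± 1.80 in plasma and 12.4% ± 2.60 in EVs, with the higher share in the pellet of 11 of 14 mice (9 of 12 with certain pairing). let-7g-5p, the largest member, took 25.5% ± 3.13 in plasma and 26.2% ± 3.59 in EVs, a difference smaller than its spread. These shares are a description with no test, since they come from the same libraries as the comparison above.

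**Figure D3:**
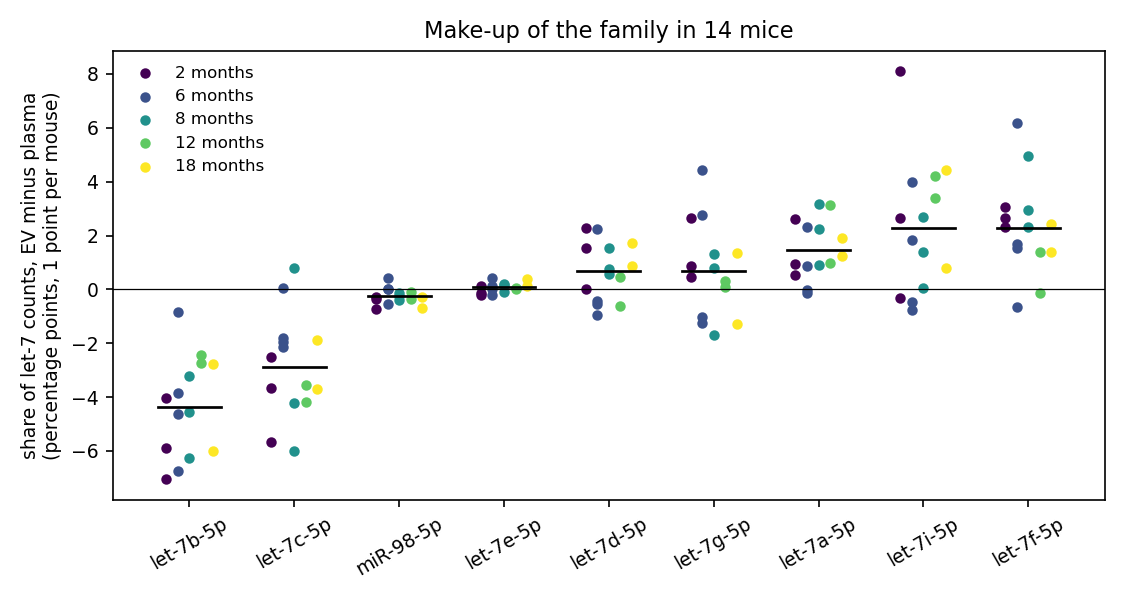
Share of let-7 counts held by each member, EV minus plasma in percentage points, 1 point per mouse coloured by age, with the mean as a black bar. All 14 points of let-7b-5p lie below 0, and 12 of 14 lie above 0 for let-7f-5p and let-7a-5p.

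Ratios of pairs of members come from the same counts as the shares and are not a separate observation. Some were split between the fractions. The ratio of let-7a-5p to let-7d-5p was higher in EVs in 7 of 14 mice, and that of let-7a-5p to let-7i-5p in 6 of 14. The ratios that follow all hold let-7b-5p and were picked among those that shifted the same way in every mouse. The log2 ratio of let-7a-5p to let-7b-5p was -0.67 ± 0.25 in plasma and -0.052 ± 0.40 in EVs, higher in EVs in 14 of 14 mice (12 of 12 with certain pairing). The log2 ratio of let-7b-5p to let-7f-5p was 1.74 ± 0.38 in plasma and 0.79 ± 0.52 in EVs, lower in EVs in 14 of 14 mice, as was that of let-7b-5p to let-7g-5p, at -0.56 ± 0.33 and -1.03 ± 0.46. With the 3 members of non-whole counts left out, let-7b-5p still held less of the family in EVs in 14 of 14 mice, 29.0% ± 4.48 in plasma and 22.1% ± 5.398 in EVs.

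Markers of other sources of blood RNA were counted beside this comparison. Of 7 red cell miRNAs, 3 were higher in plasma (10.2% of all tested) and 0 higher in EVs (8.11%). Their log2 differences ran from -0.77 to 0.24, and 2 of 7 were positive. Those called included miR-486a-5p (-0.77, adjusted p = 0.00588) and miR-92a-3p (-0.48, adjusted p = 0.0181, edgeR). The defining marker miR-451a had a log2 difference of -0.10 (edgeR adjusted p = 0.794). miR-486a-5p and miR-486b-5p had nearly equal counts (7559 and 7544 in EVs), so the 7 are not all separate measurements. The summed level of the 7 ran from 777 to 3455 RPM in plasma and from 569.7 to 4669 RPM in EVs. Of 6 platelet and myeloid miRNAs 1 was higher in EVs, and of 3 liver and 3 skeletal muscle miRNAs 0 passed. miR-451a, miR-223-3p, miR-122-5p and miR-1a-3p, which define the 4 lists, were above 0 in all 28 libraries, and the part of these cells in the let-7 differences was not tested.

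The next question was how the members move over the life of the animals. No member passed the test for a trend with age in either fraction. In plasma 0 of 304 tested miRNAs were called (0%), with 47 at an unadjusted p under 0.05 and 2 called by DESeq2. In EVs 1 of 307 was called (0.326%), with 37 at an unadjusted p under 0.05 and 5 called by DESeq2. Slopes are log2 changes per month after TMM scaling, from edgeR.

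In plasma all 9 slopes were negative under TMM scaling, with a median of -0.028 per month against -0.0019 over all miRNAs tested. The smallest p belonged to let-7a-5p, with a slope of -0.041 (SE 0.018, adjusted p = 0.273, edgeR). let-7e-5p (-0.037, SE 0.034), miR-98-5p (-0.036, SE 0.024), let-7d-5p (-0.031, SE 0.018), let-7g-5p (-0.028, SE 0.016), let-7f-5p (-0.028, SE 0.021) and let-7i-5p (-0.024, SE 0.017) were next, and let-7b-5p (-0.0094, SE 0.017) and let-7c-5p (-0.0088, SE 0.017) were nearest to 0. With RPM scaling, which moved the median slope of all miRNAs by 0.017, the slopes of let-7b-5p and let-7c-5p turned positive.

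In EVs 7 of 9 slopes were negative under TMM scaling, with a median of -0.034 against 0.0014 over all tested, but 8 of 9 were positive under RPM scaling, which moved the median slope of all miRNAs by 0.050. The smallest p was that of let-7g-5p (-0.039, SE 0.017, adjusted p = 0.385, edgeR), which DESeq2 alone called (-0.043, adjusted p = 0.0397). miR-98-5p (-0.052, SE 0.025), let-7f-5p (-0.044, SE 0.025), let-7a-5p (-0.039, SE 0.023), let-7d-5p (-0.034, SE 0.023), let-7i-5p (-0.027, SE 0.017) and let-7c-5p (-0.0081, SE 0.020) were negative under TMM scaling. let-7b-5p (0.0031, SE 0.021) and let-7e-5p (0.0040, SE 0.034) were not.

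The RPM values did not follow a straight line, and their course depended on the scale. As a share of miRNA counts, the EV means of let-7g-5p, let-7c-5p, let-7b-5p, let-7f-5p and let-7i-5p were lower at 12 than at 8 months. In RPM the same means were higher at 12 than at 8 months. let-7g-5p in plasma stood at 149, 87.2 and 91.0 RPM in the 2-month mice, 117, 61.1, 57.9 and 92.6 in the 6-month mice, 67.3, 67.3 and 52.1 in the 8-month mice, 61.1 and 133 in the 12-month mice, and 83.6 and 83.3 in the 18-month mice. In EVs it stood at 129, 119.5 and 154 RPM in the 2-month mice, 67.4, 48.1, 83.6 and 109 in the 6-month mice, 69.0, 72.2 and 63.6 in the 8-month mice, 153 and 184 in the 12-month mice, and 89.1 and 126 in the 18-month mice. The EV libraries of 2 and 12 months were above all of those of 6 and 8 months, and in plasma the 8-month libraries stayed at or below 67.3 RPM.

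let-7c-5p in plasma was 119, 65.1 and 77.0 RPM in the 2-month mice, 84.3, 63.4, 53.2 and 125 in the 6-month mice, 74.3, 67.3 and 40.4 in the 8-month mice, 65.1 and 82.6 in the 12-month mice, and 112 and 75.1 in the 18-month mice. In EVs it was 90.0, 70.9 and 90.1 in the 2-month mice, 51.0, 47.98, 59.6 and 120.5 in the 6-month mice, 54.9, 80.3 and 38.6 in the 8-month mice, 135 and 94.4 in the 12-month mice, and 119 and 90.9 in the 18-month mice. The EV libraries of 12 and 18 months were above all of those of 2 and 8 months, and in plasma the 18-month libraries were above those of 8 months, with all other pairs of ages overlapping.

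let-7b-5p in plasma was 82.4, 52.5 and 56.6 RPM in the 2-month mice, 76.6, 41.2, 42.5 and 87.1 in the 6-month mice, 55.2, 55.5 and 28.4 in the 8-month mice, 39.8 and 56.0 in the 12-month mice, and 84.5 and 59.4 in the 18-month mice. In EVs it was 51.2, 44.7 and 51.5 in the 2-month mice, 28.1, 32.1, 38.2 and 73.8 in the 6-month mice, 35.7, 53.5 and 23.6 in the 8-month mice, 83.5 and 62.2 in the 12-month mice, and 83.4 and 57.7 in the 18-month mice. Its EV values at 12 and 18 months were above all others of that fraction except 1 library of 6 months. In plasma the 2 mice of 12 months had values that overlapped with those of 2, 6 and 8 months. As a share of miRNA counts, the EV mean of let-7b-5p was instead lowest at 12 months, at 0.581% ± 0.224 (n = 2).

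let-7f-5p in plasma was 35.6, 18.1 and 13.8 RPM in the 2-month mice, 16.2, 13.8, 13.4 and 17.9 in the 6-month mice, 15.6, 14.4 and 12.4 in the 8-month mice, 18.3 and 17.4 in the 12-month mice, and 19.8 and 14.9 in the 18-month mice. In EVs it was 42.7, 36.9 and 33.1 in the 2-month mice, 26.3, 14.9, 14.4 and 25.6 in the 6-month mice, 29.1, 24.3 and 21.4 in the 8-month mice, 44.3 and 31.9 in the 12-month mice, and 28.9 and 32.5 in the 18-month mice. Apart from 1 plasma library of 2 months, plasma stayed at or below 19.8 RPM at every age.

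let-7i-5p in plasma was 57.3, 31.4 and 29.9 RPM in the 2-month mice, 57.9, 28.5, 24.1 and 37.3 in the 6-month mice, 23.8, 28.03 and 20.2 in the 8-month mice, 17.9 and 55.7 in the 12-month mice, and 34.3 and 33.2 in the 18-month mice. In EVs it was 47.3, 52.9 and 87.5 in the 2-month mice, 33.7, 21.8, 41.0 and 47.1 in the 6-month mice, 30.8, 32.5 and 27.1 in the 8-month mice, 69.9 and 96.0 in the 12-month mice, and 42.5 and 68.1 in the 18-month mice. As for let-7g-5p, the EV values of 2 and 12 months were above those of 6 and 8 months.

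**Figure D4:**
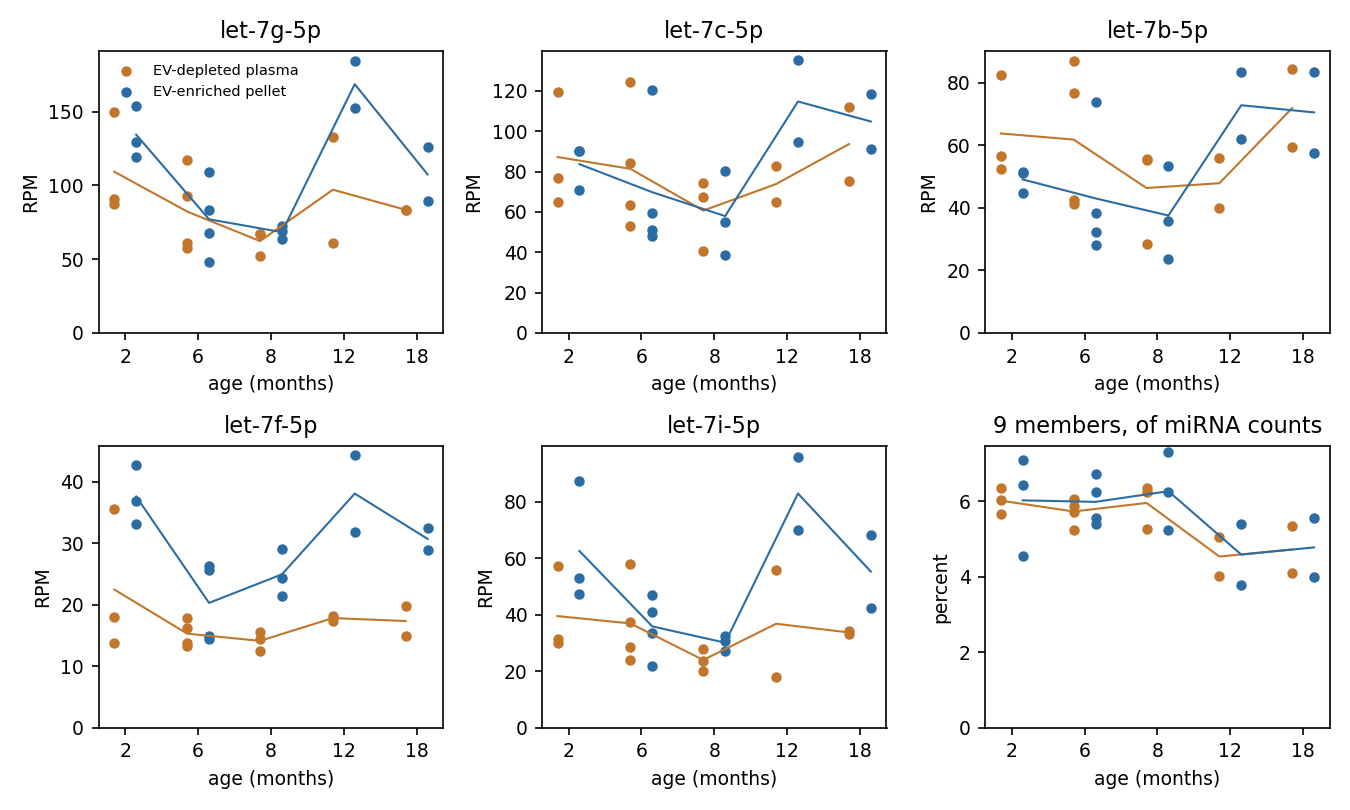
RPM of let-7g-5p, let-7c-5p, let-7b-5p, let-7f-5p and let-7i-5p, and the 9 members as a percent of miRNA counts, by age in months (ages evenly spaced), 1 point per library, with lines through the means of EV-depleted plasma (orange) and EV-enriched libraries (blue). The EV points of let-7g-5p and let-7i-5p are higher at 2 and 12 months than at 6 and 8 months, while the percent of miRNA counts has lower means at 12 and 18 months than before, with overlapping points.

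The summed RPM of the marker lists also varied with age. For red cells it was in EVs 2461 ± 1202, 868 ± 313, 887 ± 151, 3486 ± 1673 and 1709 ± 1191 RPM in order of age, and in plasma 2197 ± 1100.4, 1138 ± 440, 977 ± 37.3, 2151 ± 1310 and 1578 ± 419 (mean ± SD). Under TMM scaling all 7 red cell markers had negative slopes in both fractions, with medians of -0.026 in plasma and -0.032 in EVs and 0 of 7 past the test. All 3 liver markers had positive slopes, as did the skeletal muscle markers tested (3 in plasma and 2 in EVs). Of 6 platelet and myeloid markers, 3 had positive slopes in plasma and 5 in EVs. In these 3 lists too, 0 markers passed the test. The mean platelet and myeloid sum in EVs was 533, 544, 346, 1342 and 802 RPM in order of age, the liver sum 65.5, 91.8, 28.2, 134 and 153 RPM, and the skeletal muscle sum 2.27, 3.25, 1.13, 6.32 and 7.10 RPM, so that all 4 lists had higher means at 12 than at 8 months there. The EV means of let-7b-5p, let-7c-5p and let-7e-5p were higher at 18 than at 2 months. Those of all other members were lower at 18 than at 2 months, as was the red cell sum. The part of these sources in the course of the let-7 members was not tested.

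With age as 5 groups instead of a line, the ages differed for 24 of 304 miRNAs in plasma (7.89%) and for 1 of 307 in EVs (0.326%), in both cases for 0 of 9 members by edgeR. The smallest p was that of let-7a-5p in plasma (adjusted p = 0.267) and of let-7f-5p in EVs (adjusted p = 0.445). The difference of the 2 slopes, EV minus plasma, was called for 0 of 333 miRNAs (0%), with 11 at an unadjusted p under 0.05 and 0 called by DESeq2. It was negative for 8 of 9 members under TMM scaling and positive for 9 of 9 under RPM scaling, and the smallest p was that of let-7g-5p (-0.022 per month, SE 0.022, adjusted p = 0.997).

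Rank correlations of RPM with age were computed for all tested miRNAs, with a permutation test of 100000 resamples over 14 mice. In plasma 0 of 9 members passed -0.5 or 0.5, against 5.59% of 304 miRNAs under -0.5 and 2.96% over 0.5. The lowest was let-7a-5p (rho = -0.50, permutation p = 0.0716, adjusted p = 0.696), with Pearson's r = -0.36 (permutation p = 0.206, adjusted p = 0.721) and r = -0.56 without the 18-month mice. The highest was let-7f-5p (rho = 0.070, permutation p = 0.813, adjusted p = 1), with r = -0.18 (permutation p = 0.504, adjusted p = 0.911) and r = -0.32 without the 18-month mice. In EVs 0 of 9 passed either limit, against 10.7% of 307 miRNAs over 0.5 and 0.326% under -0.5. There let-7b-5p was highest (rho = 0.45, permutation p = 0.110, adjusted p = 0.534), with r = 0.50 (permutation p = 0.0658, adjusted p = 0.313) and r = 0.32 without the 18-month mice. miR-98-5p was lowest (rho = -0.10, permutation p = 0.722, adjusted p = 0.877), with r = -0.053 (permutation p = 0.856, adjusted p = 0.905) and r = -0.15 without them.

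As a share of miRNA counts, an alternative scale, let-7g-5p was lower in older mice in plasma. It made up 1.64%, 1.73% and 1.56% of miRNA counts in the 2-month mice, 1.39%, 1.37%, 1.46% and 1.27% in the 6-month mice, 1.43%, 1.498% and 1.46% in the 8-month mice, 1.25% and 1.33% in the 12-month mice, and 1.12% and 1.06% in the 18-month mice. The libraries of 2 months were above all others and those of 18 months below all others. Pearson's r was -0.89 (permutation p = 1e-05, the smallest these permutations can give, adjusted p = 0.00304) and rho was -0.79 (permutation p = 0.00112, adjusted p = 0.170), and by Pearson's r 2 of 304 miRNAs (0.658%) passed. Leaving out 1 library at a time kept r between -0.94 and -0.84, but without both 18-month mice r was -0.77 (permutation p = 0.00370, adjusted p = 0.225). On the other scales the same plasma libraries gave r = -0.60 (TMM, adjusted p = 0.261) and r = -0.18 (RPM, adjusted p = 0.924), so that the call was made on 1 of 3 scales and by 1 of 2 coefficients.

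In EVs let-7g-5p made up 1.96%, 1.81% and 1.38% of miRNA counts in the 2-month mice, 1.402%, 1.43%, 1.92% and 1.31% in the 6-month mice, 1.52%, 1.59% and 1.49% in the 8-month mice, 1.35% and 1.25% in the 12-month mice, and 1.09% in each of the 2 libraries of 18 months. The 18-month libraries were again below all others, with r = -0.74 (permutation p = 0.00316, adjusted p = 0.258) and rho = -0.65 (permutation p = 0.0138, adjusted p = 0.384), r without the 18-month mice being -0.55, and 0 of 307 miRNAs (0%) passed by r. On this scale 5 of 9 members in plasma (let-7a-5p, let-7d-5p, let-7g-5p, let-7i-5p and miR-98-5p) were lower at 18 than at 2 months without overlap, where 19.7% of all tested miRNAs were, and 0 were higher, where 19.4% were. In EVs 2 of 9 were lower without overlap (let-7g-5p and let-7i-5p) against a background of 15%, and 0 higher against 17.3%. A rho under -0.5 was reached on this scale by 4 of 9 members in plasma (7.57% of all tested) and 3 of 9 in EVs (5.21%), while let-7b-5p and let-7c-5p had rho of -0.23 and -0.061 in plasma. The whole family held 6.01% ± 0.348, 5.73% ± 0.351, 5.95% ± 0.5999, 4.54% ± 0.724 and 4.72% ± 0.894 of plasma miRNA counts from 2 to 18 months, and 6.02% ± 1.33, 5.98% ± 0.616, 6.26% ± 1.02, 4.59% ± 1.15 and 4.78% ± 1.10 in EVs. A share of miRNA counts also falls when other miRNAs rise, and the part of other miRNAs in this was not tested.

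The members did not all vary together over the libraries. In log2 TMM CPM over 28 libraries, which share 14 mice and fraction, the Pearson correlation of pairs of members ran from -0.39 to 0.88, given as a description. let-7b-5p with let-7c-5p (0.88) and let-7a-5p with let-7f-5p (0.82) were the closest pairs, each neighbours in a hairpin cluster and each 1 base apart. let-7d-5p with let-7f-5p, in the same cluster and 3 bases apart, followed at 0.77, and let-7g-5p with let-7i-5p, on different chromosomes and 2 bases apart, at 0.76. let-7b-5p with let-7i-5p was the lowest pair (-0.39) and let-7c-5p with let-7i-5p came next (-0.26), but these values pool fractions between which let-7b-5p and let-7i-5p differed. Within EVs they were -0.24 and -0.12, and within plasma -0.0044 and -0.20. Pairs 1 base apart had a median of 0.69 (4 pairs, 0.27 to 0.88), those 2 apart 0.62 (10 pairs, 0.21 to 0.76), those 3 apart 0.18 (11 pairs) and those 4 apart 0.47 (9 pairs). Reads assigned to the wrong one of 2 near-identical members would raise the same pairs, and their part in this was not tested.

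**Figure D5:**
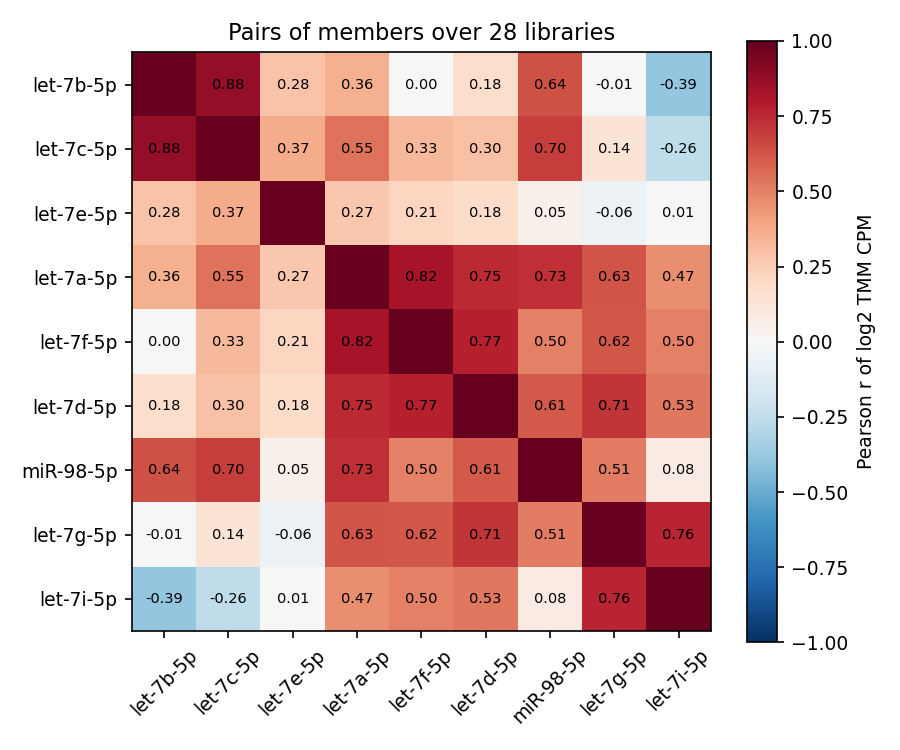
Pearson r of log2 TMM CPM between pairs of members over 28 libraries, from blue (-1) through white (0) to red (1), with r printed in each cell. let-7b-5p and let-7c-5p form 1 dark red block (0.88), let-7a-5p, let-7f-5p and let-7d-5p another, and let-7g-5p with let-7i-5p are at 0.76, pale or blue against let-7b-5p and let-7c-5p.

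The other strand of the hairpins was the most prominent for let-7d among the 7 pairs of arms that were compared. let-7d-3p made up 43.5% ± 9.44 of the counts of both arms in plasma and 35.7% ± 10.3 in EVs (n = 14 each), at 13.8 ± 5.14 and 14.0 ± 7.70 RPM. Its fraction difference was -0.32 (SE 0.14, adjusted p = 0.0982, edgeR), against 0.26 for let-7d-5p from the same hairpin. The 3p arms of let-7b, let-7g and let-7i were at 1.21% or less of both arms on average in either fraction, let-7a-1-3p at 10.0% ± 4.52 in plasma and 8.16% ± 3.88 in EVs, miR-98-3p at 9.05% ± 6.53 and 7.93% ± 6.26, and let-7e-3p at 6.27% ± 7.80 and 6.97% ± 6.30. let-7a-1-3p and let-7c-2-3p have the same sequence, and their counts were equal in 20 libraries and differed by at most 1 in the rest. As let-7a-5p also comes from more than 1 hairpin, the percent given for let-7a-1-3p is not the arm share of 1 hairpin. Of 14 such other arms and relatives, 8 passed the filter and 0 of these differed between fractions, against 18.3% of all tested miRNAs. let-7k and miR-1961, which carry the seed too, were at or under 0.482 RPM on average.

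Of 5 miRNAs encoded beside let-7 hairpins (miR-99a-5p, miR-99b-5p, miR-100-5p, miR-125a-5p and miR-125b-5p), 1 was higher in EVs (8.11% of all tested) and 1 higher in plasma (10.2%). These were miR-100-5p (1.29, SE 0.32, adjusted p = 0.00510) and miR-125a-5p (-0.56, SE 0.20, adjusted p = 0.0454, edgeR), and 3 did not pass. In plasma miR-100-5p was low, at 0.796 ± 0.671 RPM, with 56 counts in all and 1 RPM reached in 4 of 14 libraries. With age 0 of 5 passed in either fraction. miR-125a-5p and miR-99b-5p share a cluster with let-7e, whose own difference was 0.25 with adjusted p = 0.511.

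Over the 28 libraries the non-member miRNAs that followed the mean log2 TMM CPM of the members most closely were miR-494-3p (r = 0.73), miR-423-5p (0.73), miR-486a-3p (0.67), miR-25-5p (0.66) and miR-6238 (0.66), among 269 with a median r of 0.049. Those that ran against it were miR-342-3p (-0.73), miR-29b-3p (-0.72) and miR-29c-3p (-0.68). With the fraction means taken out the 8 values kept their sign, from 0.64 to 0.74 for the former and from -0.75 to -0.73 for the latter. The libraries share depth and mice, and CPM values of 1 library are parts of a whole, so these values are given with no test.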

How the data were processed

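Small RNA libraries were made from the EV-enriched pellet and the EV-depleted plasma of 14 mice. The authors deposited 1 table with estimated counts per RNA, in which 46 miRNAs, 3 of them members, hold counts that are not whole. A second table holds an RPM signal that the authors made from these counts. Counts divided by RPM gave 1 number per library (largest relative deviation 5.93e-06). This number was smaller than the column total except in the plasma library of 6-month replicate 3, where it was about 8480360 against about 7889620. The submitters' processing notes name mm10 and R 4.0.4. The study's methods give miRMaster and Bowtie mapping to miRBase, with a mismatch allowed, for its organ libraries, and refer to an earlier report for the EV data; whether that mapping also made these counts, and how reads with several matches were counted, is not stated there.

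Counts were rounded and fitted with edgeR 4.0.16 (quasi-likelihood, TMM over miRNAs, all 28 libraries for the fractions and 14 per fraction for age) in R 4.3.3, keeping a miRNA that reached 1 RPM in over 10% of the libraries (at least 2) of the fraction fitted, or of either fraction in joint fits. The main fraction fit held age in months as a covariate and no block by mouse. p-values are two-sided and Benjamini-Hochberg adjusted over all miRNAs tested, with a threshold of 0.05. Alternatives used DESeq2 1.42.0, limma 3.58.1 on log2(RPM + 1) and log2(RPM + 0.1), other scalings, filters and ages, and each mouse left out. Correlations used scipy 1.17.1, pandas 2.3.3 and numpy 2.4.6 in Python 3.11.15, and plots matplotlib 3.10.9. The fits were tested on simulated data.

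The members and lists were chosen with earlier results of these data known. All members are named in the fraction and age trend fits, elsewhere those of smallest p and extreme rho; values of each library are given for the 3 most abundant members and those past a threshold, and partner lists are given by counts, with fold differences for at most 3 miRNAs of each. Mice are separate animals, and the closest replicates still differed beyond what counting allows (chi-square over its degrees of freedom 3.82). By the labels a plasma and an EV library with the same age and number come from the same animal, except that the plasma labels of 2-month replicates 2 and 3 share a code and were paired by number alone. Over 278 miRNAs the deviations of paired libraries correlated with r from 0.0300 to 0.630, and 7 of 10 mice at ages with more than 2 mice were closest to their own EV library.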

Additional observations from a re-analysis of the deposited data

Results flagged for a closer look

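let-7c-5p in the EV library of 6-month replicate 4 stood at 120.5 RPM, while the other 3 EV libraries of that age were between 47.98 and 59.6 RPM. The gap to the nearest of them was 0.840 of the range of the 4. Of 18 sets of 4 libraries looked at, for 9 members in 2 fractions, this was 1 set past the limit, and chance passes about 1 set in 20. The plasma library of the same mouse was the highest of its age too, at 125 RPM. As a share of miRNA counts, let-7c-5p in the 6-month EV libraries was 1.06%, 1.43%, 1.37% and 1.45% in order of replicate. On that scale replicate 4 thus did not stand apart.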

How the results depend on the processing

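Between the fractions, 3 members were called, and 1 (let-7f-5p) with RPM scaling, without the filter, and with limma at either pseudocount. Leaving out 1 mouse gave 1 to 3 members, 1 without 8-month replicate 1 or 3. With the mouse as a block 4 members and 88 miRNAs were called, and the block changed no other member call. let-7c-5p reversed to 0.038 with RPM scaling and to 0.021 and 0.020 with limma. All called miRNAs numbered 61, and 40 and 38 with limma; with RPM scaling 28 were higher and 15 lower in EVs, against 27 and 34.

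For the plasma trend let-7b-5p and let-7c-5p reversed to 0.0041 and 0.0038 per month with RPM scaling and to 0.0040 and 0.0061 with limma. Called miRNAs numbered 0, 7 without the filter, 2 with DESeq2 and 8 up to 12 months. In EVs RPM scaling turned let-7a-5p to 0.0067, let-7c-5p to 0.034, let-7d-5p to 0.011, let-7f-5p to 0.0026, let-7g-5p to 0.0087 and let-7i-5p to 0.018, and limma gave 0.0086, 0.036, 0.017, 0.0072, 0.010 and 0.021 in that order. let-7b-5p and let-7e-5p became -0.0025 and -0.0021 with DESeq2 size factors and -0.028 and -0.0043 up to 12 months, and let-7b-5p -0.0026 with DESeq2, which called 1 member. Called miRNAs numbered 1, 7 without the filter, 5 with DESeq2, 5 on log2 age and 3 up to 12 months. Leaving out 1 mouse gave -0.026 to 0.014 for let-7b-5p and -0.028 to 0.026 for let-7e-5p, negative in 4 and 5 of 14 fits. For the slope difference let-7g-5p reversed to 0.024 with RPM scaling and 0.023 with limma. The age groups and the slope difference gave 0 members in every setting, although the EV age groups called 71 miRNAs with RPM scaling, 19 without the filter and 9 with DESeq2, against 1.

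In plasma 0 members had rho past -0.5 or 0.5. Under -0.5 were 3 on TMM CPM (22 of 304 miRNAs) and 4 as a share of miRNA counts (23 of 304). Up to 12 months 2 members were under -0.5 (23 of 304), and without 1 library 0 to 2. In EVs 0 members passed either limit, and 0 did up to 12 months. Under -0.5 were 3 on TMM CPM (11 of 307 miRNAs) and 3 as a share (16 of 307). Without 1 EV library 0 to 2 members were over 0.5, with 2 without 6-month replicate 4 (59 of 307 miRNAs). In plasma let-7f-5p reversed to -0.27 on TMM CPM, -0.31 as a share and -0.069 up to 12 months, and ran from -0.082 to 0.30 without 1 library. In EVs let-7b-5p reversed to -0.11 on TMM CPM, and without 1 library miR-98-5p ran from -0.32 to 0.056, the latter without 2-month replicate 1 or 2. The share of let-7g-5p without the 18-month mice was added after seeing the data. The cause of these changes was not tested. The plasma library of 261 let-7 counts gave a family share of 5.24% (95% exact Clopper-Pearson interval 4.64 to 5.90, counting error only), and differences of that size cannot be seen in it. The 12-month and 18-month groups hold 2 mice each.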
